A study of Homo sapiens with 15 samples.

Results

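The change caused by glucosamine (GlcN) in the presence of alloxan was compared, gene by gene, with the change caused by GlcN without alloxan in MH7A cells, a human synovial fibroblast-like line immortalised with a viral large T antigen. All 12 arrays of stimulated cells were used, of 15 in the series. They form a 2 by 2 design of GlcN and alloxan, repeated in 3 experiments with 1 array of each condition. All 12 cultures were stimulated with IL-1β at 15 pg/ml, and RNA was taken 13 h later. The IL-1β-alone group had no other addition. The GlcN group had 5 mM GlcN from 2.5 h before IL-1β. The alloxan group (Allo) was first kept in 5 mM alloxan, for 30 min, and afterwards in 2 mM, and the group with both agents (GlcN and Allo) had that alloxan schedule and 5 mM GlcN. The other 3 arrays, of resting cells without IL-1β or either agent, were used only as a second baseline. For each gene the value of interest, called the interaction below, is the log2 difference of the GlcN and Allo array from the Allo array, minus that of the GlcN array from the IL-1β-alone array, taken within each experiment. An interaction of 0 means that the fold changes of the agents multiplied. A negative value means that GlcN raised the gene less, or lowered it more, in alloxan.

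GlcN is an amino sugar that cells phosphorylate and convert, through the hexosamine pathway, into UDP-GlcNAc. The enzyme O-GlcNAc transferase (OGT) uses UDP-GlcNAc to modify serine and threonine residues of nuclear and cytosolic proteins. Alloxan, a glucose-like compound best known for its toxicity to pancreatic beta cells, was added as an inhibitor of OGT. It also undergoes redox cycling and inhibits other enzymes, among them glucokinase. The design therefore asks which GlcN responses depend on what alloxan blocks, but a gene that alloxan moves by itself enters the same interaction. For that reason the genes described in detail below are given with the change caused by each agent alone.

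The deposited log2 values differ in level between experiments (array medians of the stimulated cells were 6.18 to 6.21 in experiment 1, 7.15 to 7.19 in experiment 2 and 7.49 to 7.54 in experiment 3), so each value is read against the other arrays of its own experiment. The fit has the experiment as a block. The fibroblast marker VIM was at the 99.4th percentile of the tested genes, and 7 of 13 tested fibroblast markers were above the middle of the arrays, against 1 of 8 macrophage markers (CD68), 0 of 7 endothelial markers and 2 of 6 epithelial markers, of which KRT18 was at the 95.7th percentile. Nothing in the labels says that the 3 experiments were separate cell stocks, so the p-values do not reach beyond these experiments. They rest on the residual spread of the whole fit, over all conditions of stimulated cells and with information shared between genes. The SD printed with an interaction is over its 3 within-experiment values and is not the error behind its p-value or interval.

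In the absence of alloxan, GlcN raised 820 genes and lowered 1023 of the 16872 genes tested (10.9% called at an adjusted p under 0.05), whereas in alloxan it raised 240 and lowered 203 (2.63%). These counts alone do not show that the responses differ. The direct test of the difference called 11 genes, 0.0652% of those tested, with 4 interactions above 0 (ZNF114, ANPEP, TRMT10A and METTL25) and 7 below 0 (IL20RB, GDF15, SLFN5, SESN2, HDDC3, THG1L and ELAC1). All 11 had the same sign in 3 of 3 experiments, against 31.1% of all genes tested. They were chosen on the interaction from these same values, so nothing is read from the shared sign. The call rests on all 3 experiments together. With any 1 of them left out, the limma fit called 0 genes, while 968 to 2087 genes had an unadjusted p under 0.05. The 11 genes kept their sign, which had to follow from the shared sign in 3 of 3 experiments. With a single array left out, the fit called 0 genes for each of the 6 alloxan-treated arrays and for the GlcN array of experiment 2 (1140 to 1715 genes at an unadjusted p under 0.05). For the other arrays it called 1 to 21 genes. A wider set, with an unadjusted p under 0.05 and at least a 1.5-fold ratio between both GlcN fold changes, held 137 genes (0.812% of those tested), 75 above 0 and 62 below 0. It is used here as a description, because those genes other than the 11 did not pass the adjusted test. Over all genes the median interaction was -0.02 on the log2 scale, and 43.4% were above 0. The GlcN change with alloxan and the GlcN change without it share no array, and over the 16872 genes, which are not independent, they correlated with r = 0.64.

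**Figure D1:**
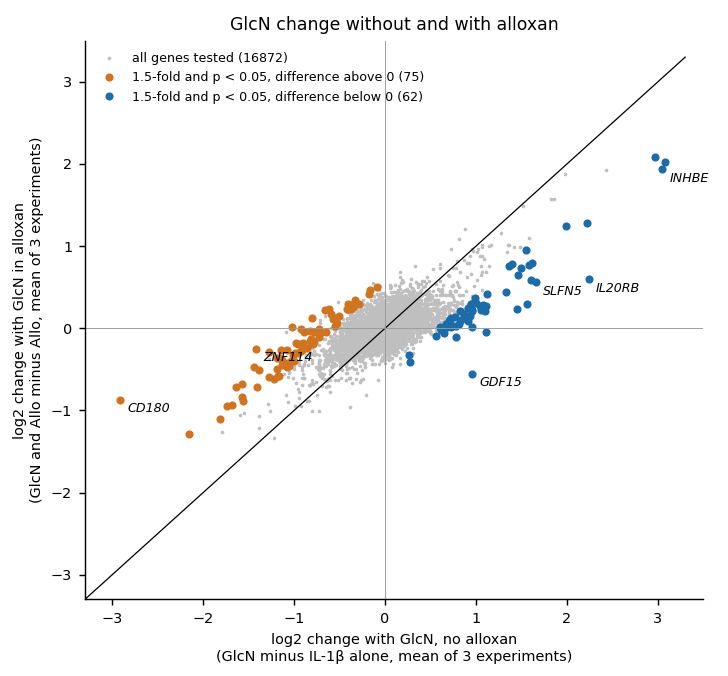
The mean log2 change caused by GlcN without alloxan (x axis) and in alloxan (y axis) is plotted for each of 16872 genes, with the diagonal marking equal changes. The 137 genes of the 1.5-fold set, 75 in orange (interaction above 0) and 62 in blue (below 0), lie between the diagonal and the horizontal zero line or past that line. They were chosen on these same values.

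Among the genes with an interaction below 0, GDF15, SESN2, HDDC3, THG1L and ELAC1 were raised by either agent alone. Their joint change was below the sum of the single changes, which is what an interaction below 0 means and no further result. GDF15, a stress-induced cytokine of the TGF-β superfamily, had log2 values of 8.64, 9.98 and 9.86 in IL-1β alone (experiments 1, 2 and 3), 9.87, 10.69 and 10.81 with GlcN, 10.29, 11.38 and 11.69 with alloxan, and 9.76, 10.78 and 11.17 with both. Alloxan alone thus gave the highest value in every experiment, and adding GlcN to it lowered GDF15 in 3 of 3. GlcN raised GDF15 1.95-fold without alloxan (log2 change 0.96 ± 0.11, SE, adjusted p = 0.00096) and brought it to 0.682-fold in alloxan (log2 change -0.55, adjusted p = 0.0341). Alloxan alone raised it 3.09-fold (adjusted p = 0.000156). The interaction was -1.52 ± 0.23 (SD over the experiments), with a 95% interval of -1.87 to -1.16 and an adjusted p of 0.0226.

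SESN2, a stress-inducible inhibitor of mTORC1 signalling, rose in the same manner but without a change of sign. Its log2 values were 6.81, 8.26 and 8.53 in IL-1β alone, 8.34, 9.41 and 9.84 with GlcN, 7.66, 8.96 and 9.37 with alloxan and 8.16, 9.34 and 9.81 with both. The arrays with both agents thus lay at or just under the GlcN arrays in each experiment. GlcN raised it 2.51-fold without alloxan and 1.36-fold in alloxan (adjusted p = 2.2e-05 and 0.0101), alloxan alone raised it 1.74-fold, and the interaction was -0.89 ± 0.13 (SD, adjusted p = 0.0226). HDDC3, a metal-dependent hydrolase that removes a phosphate from NADPH, rose 2.08-fold with GlcN and 1.68-fold with alloxan, and 1.95-fold with both (interaction -0.84 ± 0.04, SD, adjusted p = 0.0226). THG1L, a guanylyltransferase that acts on histidine tRNA, rose 1.84-fold, 2.09-fold and 2.28-fold in the same order (interaction -0.76 ± 0.25, SD, adjusted p = 0.046). For both genes the GlcN change in alloxan did not pass the test (log2 changes 0.22 and 0.13, adjusted p = 0.134 and 0.433).

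ELAC1, a nuclease of tRNA repair, had smaller and very even changes. GlcN raised it by 0.31, 0.22 and 0.25 on the log2 scale in experiments 1, 2 and 3, alloxan raised it by 0.51, 0.57 and 0.52, and GlcN added to alloxan changed it by -0.30, -0.41 and -0.28. The sign of the GlcN change therefore turned in every experiment, as for GDF15 (interaction -0.59 ± 0.06, SD, adjusted p = 0.0226, adjusted p of the GlcN change in alloxan 0.00534).

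IL20RB and SLFN5, the other genes with an interaction below 0, had larger changes with GlcN than with alloxan (adjusted p of that difference 6.63e-05 and 2.69e-05). The same held, by less, for SESN2 and HDDC3 (log2 differences 0.53 and 0.31, adjusted p = 0.00111 and 0.0118). IL20RB encodes the shared β subunit of the receptors for IL-19, IL-20 and IL-24. Its log2 values were 5.56, 6.45 and 6.85 in IL-1β alone, 8.23, 8.72 and 8.63 with GlcN, 5.95, 6.55 and 6.98 with alloxan, and 6.41, 7.21 and 7.66 with both. The GlcN arrays stood above the rest in each experiment, and the arrays with both agents lay between those with GlcN and those with alloxan. GlcN raised IL20RB 4.73-fold without alloxan (adjusted p = 6.14e-05) and 1.52-fold in alloxan (adjusted p = 0.069), whereas alloxan alone gave a log2 change of 0.21 that did not pass the test (adjusted p = 0.442). The interaction of -1.64 ± 0.54 (SD, 95% interval -2.10 to -1.18, adjusted p = 0.046) was -2.20, -1.61 and -1.11 in experiments 1, 2 and 3. SLFN5, a member of the Schlafen family, rose 3.16-fold with GlcN and 1.47-fold when GlcN was added to alloxan (adjusted p = 2.2e-05 and 0.00832). Its interaction was -1.10 ± 0.25 (SD, adjusted p = 0.0226), and alloxan alone raised it 1.24-fold (adjusted p = 0.0367).

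Of the 4 genes with an interaction above 0, ZNF114 and ANPEP were lowered by each agent. The zinc finger gene ZNF114 had log2 values of 9.54, 10.84 and 10.84 in IL-1β alone, 8.15, 9.35 and 9.45 with GlcN, 8.57, 9.86 and 10.16 with alloxan, and 8.32, 9.47 and 10.04 with both. In each experiment the value with both agents lay between those with GlcN and with alloxan. GlcN lowered ZNF114 to 0.373-fold without alloxan, but the log2 change of -0.25 in alloxan did not pass the test (adjusted p = 0.253, interaction 1.17 ± 0.09, SD, adjusted p = 0.0347). ANPEP, the cell-surface aminopeptidase N, fell to 0.507-fold with GlcN and to 0.558-fold with alloxan, and stood at 0.491-fold with both (interaction 0.79 ± 0.08, SD, adjusted p = 0.0242).

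TRMT10A, a tRNA methyltransferase, and METTL25, a methyltransferase-like gene, were lowered by alloxan and not called with GlcN alone. TRMT10A log2 values were 7.44, 8.41 and 8.25 in IL-1β alone, 7.34, 8.14 and 8.07 with GlcN, 6.81, 7.71 and 7.64 with alloxan, and 7.34, 8.03 and 8.06 with both. Only the alloxan arrays stood clearly low, and GlcN added to alloxan brought the gene to the level of the GlcN arrays (both minus GlcN was 0.00, -0.11 and -0.01 on the log2 scale). GlcN raised TRMT10A in alloxan by 0.42 and METTL25 by 0.38 on the log2 scale (adjusted p = 0.0052 and 0.0012), against changes of -0.18 and -0.03 without alloxan (adjusted p = 0.067 and 0.696). The interactions were 0.61 ± 0.02 for TRMT10A and 0.41 ± 0.05 for METTL25 (SD, adjusted p = 0.046 for each).

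**Figure D2:**
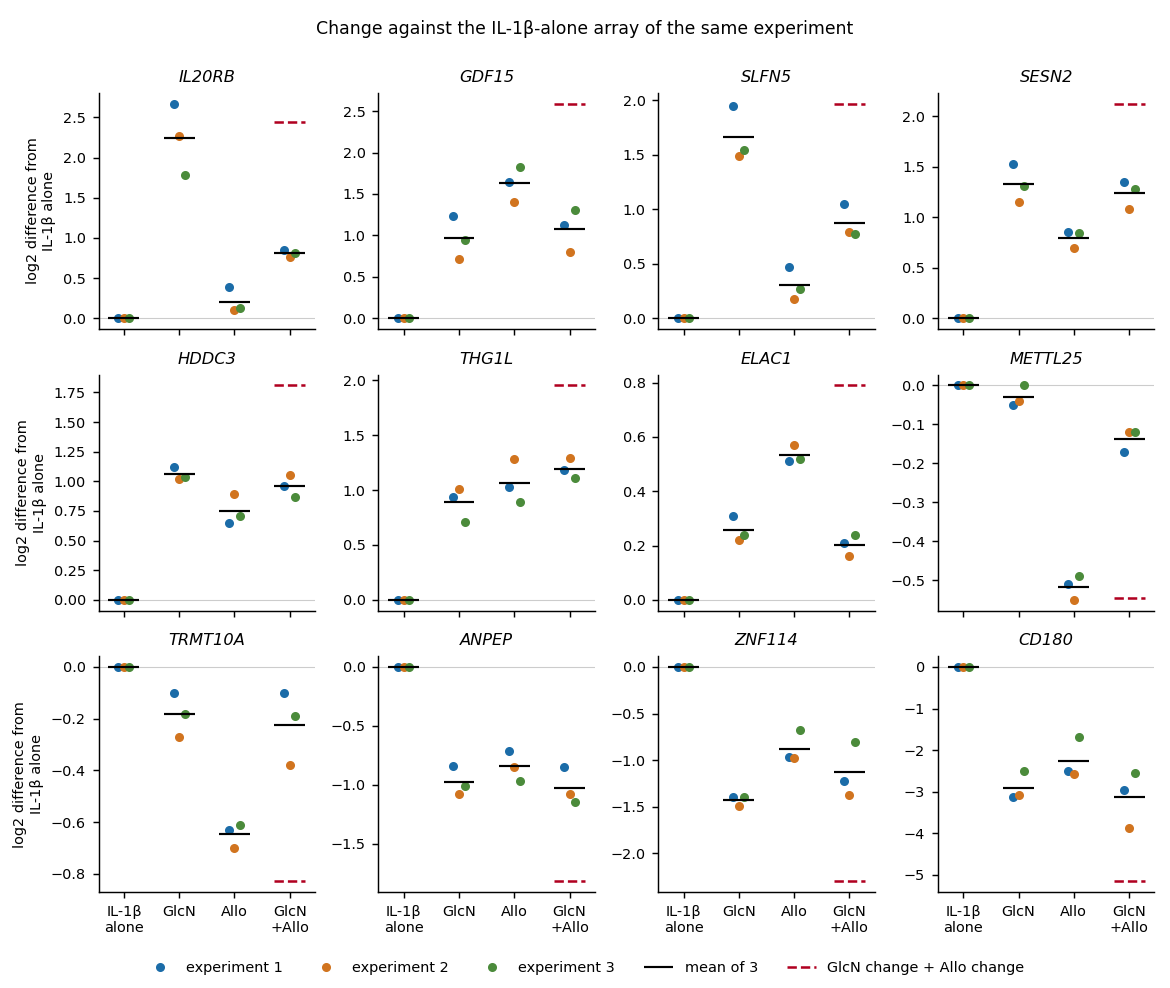
Log2 differences from the IL-1β-alone array of the same experiment are plotted for the 11 called genes and CD180, with points for experiments 1 to 3, black bars for means and a dashed red bar for the sum of the 2 single changes. The distance from the dashed bar to the mean with both agents is the interaction itself, on which the genes were chosen. In every panel that mean lies nearer to 0 than the dashed bar, and CD180 is the gene of the 12 that did not pass the adjusted test.

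The largest interaction of any gene tested belonged to CD180, a Toll-like receptor homologue, and it did not pass the adjusted test (2.03 ± 0.56, SD, 95% interval 1.32 to 2.74, adjusted p = 0.0906). Its log2 values were 7.37, 8.98 and 8.04 in IL-1β alone, 4.25, 5.89 and 5.54 with GlcN, 4.87, 6.40 and 6.36 with alloxan and 4.42, 5.10 and 5.49 with both. All 9 arrays with an agent stood below the IL-1β-alone array of their experiment. GlcN lowered CD180 to 0.133-fold and alloxan to 0.21-fold (adjusted p = 0.000118 and 0.000552), and with both it stood at 0.115-fold.

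Across the 137 genes of the 1.5-fold set, GlcN and alloxan alone were both called in the same direction for 75 (54.7%), against 3.7% of all genes tested. GlcN alone was called and alloxan alone was not for 44 (32.1%, against 6.6%), alloxan alone was called and GlcN was not for 6 (4.4%, against 7.6%), and neither was called for 12 (8.8%, against 81.5%). Both were called in opposite directions for 0, against 0.6% of all genes. Alloxan alone called 2012 genes, 11.9% of those tested, and alloxan added to GlcN called 880 (5.22%). In 108 of the 137 genes the GlcN change was smaller in alloxan and kept its sign, and in 29 the sign turned (78.8% and 21.2%, against 35.2% and 41.5% of all genes). The genes were chosen on the interaction, which bears on this split, so nothing is read from it. The single changes and the interaction all use the IL-1β-alone arrays, so an error in these arrays would enter both single changes and, with the opposite sign, the interaction. These shares are therefore descriptions. In the 137 genes the mean difference between IL-1β alone and resting cells was 0.12 in median size on the log2 scale, against 0.05 over all genes. Its median was 0.08 for the 75 genes with an interaction above 0 and -0.10 for the 62 below 0, which is the direction that an error in the IL-1β-alone arrays would give. The part of such an error in the result was not tested. Putting the resting arrays in place of IL-1β alone shifts each interaction by the gene's resting minus IL-1β-alone difference. All 137 genes then kept the sign of the interaction. They were chosen for a large interaction and the other arrays are the same, so nothing is read from the kept sign. With this resting baseline, GDF15, SESN2 and IL20RB of the 11 still passed the adjusted test. The interaction of ANPEP was then 0.50.

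In a direct comparison of GlcN with alloxan, the estimated difference uses neither the IL-1β-alone arrays nor those with both agents. Its error and adjusted p come from the fit to all arrays of stimulated cells. The calls are therefore not independent of the arrays left out of the difference. The comparison called 9 of the 11 genes and 66 of the 137 (48.2%), and 2316 of all genes tested (13.7%). Among the 11 it did not call ANPEP (adjusted p = 0.199) or THG1L (adjusted p = 0.134), so for these genes no difference between the agents given alone was detected.

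ATF4 is the transcription factor of the amino acid and integrated stress responses. It raises genes for amino acid synthesis and uptake, together with stress effectors, in part through CARE elements, composite sites at which it binds with C/EBP proteins. The ATF4 target list had the lowest median interaction of the 28 gene lists examined, -0.34 against -0.02 over all genes. Of its 35 tested members, 32 were below 0, against 9534 of all 16872 genes. In 3 of 3 experiments 25 members were below 0, against 2902 of all genes. GDF15 and SESN2 passed the adjusted test, and 20 had an unadjusted p under 0.05 below 0 with none above 0, where 5.00% of all genes tested lay below 0 at that level and 5.12% above 0. GlcN alone raised 28 of the 35 and lowered 1, and GlcN in alloxan raised 24 and lowered 1, where GlcN raised 4.86% of all genes without and 1.42% in alloxan. The 24 were all among the 28. The lowered genes were STC2, a secreted glycoprotein, without alloxan and GDF15 in alloxan. The list medians of the log2 GlcN change were 1.07 without alloxan and 0.69 in alloxan. The median interaction was -0.41, -0.31 and -0.38 in experiments 1, 2 and 3. Leaving out each experiment gave 16 members below 0 at an unadjusted p under 0.05 in each case, and the resting baseline also gave 16. These fits share most of their arrays with the main fit, and the list was chosen with earlier results of these data known. The counts are therefore descriptions and not independent support.

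DDIT4, another inhibitor of mTORC1 signalling, rose 2.16-fold with GlcN and 1.84-fold with alloxan but was at 0.971-fold when GlcN was added to alloxan (interaction -1.15 ± 0.18, SD, adjusted p = 0.0906). CHAC1, which degrades glutathione, rose 3.02-fold with GlcN, 1.52-fold with alloxan and 1.5-fold when GlcN was added to alloxan (interaction -1.01 ± 0.06, SD, adjusted p = 0.1). For DDIT3, the transcription factor CHOP, the GlcN change was 4.65-fold without and 2.43-fold in alloxan (interaction -0.94 ± 0.38, SD, adjusted p = 0.212). INHBE, an activin β subunit, rose 8.29-fold with GlcN and 3.84-fold in alloxan, and alloxan alone gave a log2 change of -0.41 that did not pass the test (interaction -1.11 ± 0.43, SD, adjusted p = 0.168). TRIB3, a pseudokinase that restrains ATF4, and CEBPB, a binding partner of ATF4, had interactions of -0.83 and -0.81, and the transcription factor ATF5 had -0.68. Among the genes of amino acid, folate and tRNA supply or transport, SLC6A9, PCK2, MTHFD2, PHGDH and SLC1A4 had interactions of -0.50, -0.49, -0.38, -0.34 and -0.29 with an unadjusted p under 0.05, whereas ALDH1L2, ASNS, CTH, SHMT2, SLC3A2, SLC7A5, SLC7A11 and XPOT had interactions between -0.30 and -0.10 that did not reach it. PSAT1 and PSPH, of serine synthesis, and the transporters SLC1A5 and SLC38A2 did not reach it either (-0.33, -0.26, 0.08 and 0.12). ASNS, asparagine synthetase, rose by 1.86 without and 1.57 with alloxan on the log2 scale. ATF4 itself had changes of 0.77 and 0.46 (interaction -0.31).

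**Figure D3:**
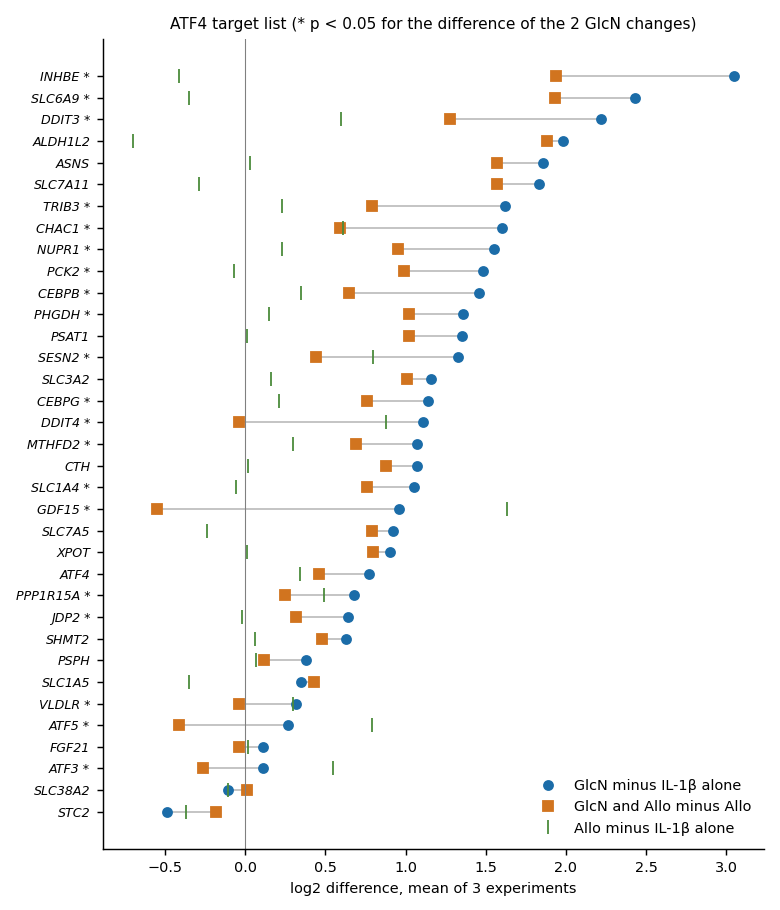
For the 35 tested members of the ATF4 target list, the mean log2 change caused by GlcN without alloxan (circles) is joined to that in alloxan (squares), with the change caused by alloxan alone as a green tick and a star for an unadjusted p under 0.05. The square lies left of the circle in 32 of 35 members, and the longest line is that of GDF15.

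The 250 bases before the annotated starts (RefSeq, GRCh38.p14) were searched on both strands for the CARE core, TGATGNAA. It was present in 1061 of 27305 genes (3.89%), in 7 of the 29 tested ATF4 list members with a promoter entry, and in 4 of the 18 of these with a negative interaction at an unadjusted p under 0.05. The core was thus held by 22.2% of those 18 and by 27.3% of the other 11 members. The 4 stretches are shown because they are the only ones among those 18 genes to hold the core, in capitals, with up to 40 bases on each side and ending before the start.
ATF3: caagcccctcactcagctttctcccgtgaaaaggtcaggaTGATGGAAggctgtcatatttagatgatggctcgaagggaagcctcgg
CEBPG: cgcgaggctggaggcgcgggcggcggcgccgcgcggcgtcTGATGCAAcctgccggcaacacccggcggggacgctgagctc
CHAC1: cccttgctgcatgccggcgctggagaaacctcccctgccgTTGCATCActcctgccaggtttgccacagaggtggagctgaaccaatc
JDP2: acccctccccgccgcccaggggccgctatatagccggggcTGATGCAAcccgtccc
All 4 stretches are on the plus strand, at chr1:212565176-212565263 (ATF3), chr19:33374031-33374112 (CEBPG), chr15:40953222-40953309 (CHAC1) and chr14:75427966-75428021 (JDP2). The core lies on the gene's own strand in ATF3, CEBPG and JDP2 and on the opposite strand in CHAC1, and begins 191, 42, 16 and 209 bases before the start in ATF3, CEBPG, JDP2 and CHAC1. The interactions of these genes were -0.37 for ATF3, -0.38 for CEBPG, -0.31 for JDP2 and -1.01 for CHAC1. ATF3, a stress-induced repressor, differed from the others in that GlcN alone gave a log2 change of 0.11 (adjusted p = 0.474), while alloxan raised it by 0.55 (adjusted p = 0.0037).

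The aminoacyl-tRNA synthetases, which load tRNAs with amino acids and include several ATF4 targets, had a median interaction of -0.09 over 19 tested members. At an unadjusted p under 0.05, 6 lay below 0 and 1 above 0, against 5.00% and 5.12% of all genes tested. None passed the adjusted test. WARS1, the tryptophan enzyme, rose 3.97-fold with GlcN and 2.38-fold in alloxan (interaction -0.74 ± 0.25, SD, adjusted p = 0.238). MARS1 and SARS1 rose 1.75-fold each without alloxan and 1.33-fold and 1.41-fold in alloxan.

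Genes of the unfolded protein response and the chaperones of the endoplasmic reticulum (ER), were also raised by GlcN, but with a median interaction of -0.01. GlcN raised 23 of 28 members without alloxan and 22 in alloxan, against 4.86% and 1.42% of all genes tested. The median log2 changes were 0.62 and 0.54. At an unadjusted p under 0.05, 5 members lay above 0 and 2 below 0, against 5.12% and 5.00% of all genes. The 2 were SEC11C, a signal peptidase subunit (-0.33, with GlcN changes of 0.78 without and 0.45 in alloxan), and CLGN, a chaperone (-0.38, with 0.64 and 0.26). MANF, an ER-stress-induced secreted protein, rose 1.75-fold without alloxan and 2.13-fold in alloxan, and alloxan alone lowered it to 0.759-fold (interaction 0.28 ± 0.23, SD, adjusted p = 0.387). HSPA5, the chief ER chaperone, gave GlcN changes of 0.88 and 1.21 on the log2 scale. SEC24D, a subunit of the COPII coat, had an interaction of 0.45 ± 0.05 (SD, adjusted p = 0.0911), with values of 0.41, 0.50 and 0.42 in the 3 experiments.

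The p53 target list had a median interaction of -0.17, with 17 of 22 members below 0. At an unadjusted p under 0.05, 10 members lay below 0 and none above 0, against 5.00% and 5.12% of all genes. SESN2, which is on both lists, was its only member past the adjusted test. Alloxan raised 13 of the 22 without GlcN and 5 in its presence, and GlcN alone raised 4 and lowered 3. Over all genes, alloxan raised 5.43% without and 2.41% with GlcN, and GlcN alone raised 4.86% and lowered 6.06%. TP53INP1, a p53-induced nuclear protein, had log2 changes of 0.77 with alloxan, 0.27 with GlcN and 0.47 with both (interaction -0.57 ± 0.10, SD, adjusted p = 0.0678, -0.33 with the resting baseline). CDKN1A, a cyclin-dependent kinase inhibitor, rose by 0.88 with alloxan and fell by 0.36 with GlcN on the log2 scale (interaction -0.30). The large T antigen that immortalised the line is known to bind p53.

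Among 31 tested NRF2 targets and antioxidant genes, 3 lay below 0 and none above 0 at an unadjusted p under 0.05 (median interaction -0.06). Over all genes tested, 5.00% lay below 0 and 5.12% above 0 at that level. NQO1, a quinone reductase, rose 1.5-fold with GlcN and 1.89-fold with alloxan, and 1.94-fold with both (interaction -0.55 ± 0.21, SD, adjusted p = 0.204). For NFE2L2, which encodes NRF2, and GCLC, a subunit of the enzyme that starts glutathione synthesis, the interactions were -0.33 and -0.25. Of 22 immediate early genes, 5 lay below 0 and 1 above 0 at that level (median -0.07), among them NR4A1 (-0.37), FOSB (-0.32) and ATF3. EGR1, a growth-responsive transcription factor, had large single changes and an interaction near 0. Its log2 values were 9.80, 10.77 and 11.13 in IL-1β alone, 8.95, 10.45 and 10.45 with GlcN, 11.21, 12.31 and 12.26 with alloxan and 10.53, 11.70 and 11.73 with both. GlcN lowered it by a similar amount with and without alloxan (log2 changes -0.60 and -0.62), alloxan raised it 2.56-fold, and the interaction was 0.01 (95% interval -0.31 to 0.34, adjusted p = 0.977).

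In the ERK feedback list (20 members, median -0.05), HBEGF, a ligand of the EGF receptor, and DUSP10, a MAP kinase phosphatase, lay above 0 at an unadjusted p under 0.05 and none lay below. GlcN lowered HBEGF to 0.499-fold without and 0.725-fold in alloxan (interaction 0.54 ± 0.12, SD, adjusted p = 0.194). DUSP10 fell to 0.58-fold with GlcN, and in alloxan its log2 change was -0.15 (adjusted p = 0.356, interaction 0.64 ± 0.06, SD, adjusted p = 0.0906). The 31 hypoxia and glycolysis genes had a median of 0.04. They ran from VEGFA (-0.41), an angiogenic growth factor, to PDK1 (0.55), a kinase that restrains pyruvate oxidation, and STC1 (0.75), a secreted glycoprotein. The log2 GlcN changes without and in alloxan were 0.72 and 0.31 for VEGFA, -0.87 and -0.32 for PDK1, and -1.68 and -0.93 for STC1. For VEGFA, PDK1 and STC1 the GlcN change was thus smaller in alloxan, and the interaction had the opposite sign to the GlcN change. At an unadjusted p under 0.05, 4 of the 31 lay above 0 and 2 below 0, against 5.12% and 5.00% of all genes. Below 0 with VEGFA was SLC2A3 (-0.39). Its log2 GlcN changes were -0.27 without and -0.65 in alloxan, so its fall was larger in alloxan. Heat shock genes, among them those of the mitochondrial chaperonins HSPD1 and HSPE1, were above 0 in 17 of 19, but by little (median 0.08). HSPH1, HSP90AA1 and HSPA8 had interactions of 0.31, 0.22 and 0.17, and 4 of the 19 had an unadjusted p under 0.05. At that level, 5.12% of all genes tested lay above 0 and 5.00% below 0.

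C/D box small nucleolar RNAs (snoRNAs), which guide methylation of ribosomal RNA and are mostly cut from introns, had the highest list median, 0.36, with 72 of 81 tested members above 0. Of these, 19 had an unadjusted p under 0.05, against 5.12% of all genes tested above 0 at that level. None passed the adjusted test. GlcN alone lowered 24 of the 81 and GlcN in alloxan lowered 1, against 6.06% and 1.2% of all genes. This pattern rested largely on experiment 2: the list medians were -0.03, 0.93 and 0.19 in experiments 1, 2 and 3, and 20 members were above 0 in all 3. At an unadjusted p under 0.05, the count was 3 without experiment 2, 9 without experiment 3, 30 without experiment 1, and 3 with the resting baseline, which also brought SNORD30 to 0.11, SNORD42A to 0.47, SNORD75 to 0.49, SNORD78 to 0.34 and SNORD79 to 0.43. SNORD75, SNORD78 and SNORD79 lie in introns of one host gene, GAS5, and so share a transcript. SNORD75 had log2 values of 9.15, 9.97 and 9.48 in IL-1β alone, 8.01, 8.30 and 8.87 with GlcN, 8.86, 9.54 and 9.35 with alloxan and 8.36, 9.42 and 9.19 with both. The GlcN array was the lowest in each experiment, most clearly in experiment 2. The interactions were 0.88 ± 0.58 for SNORD75, 0.83 ± 0.69 for SNORD78 and 1.04 ± 0.92 for SNORD79 (SD, adjusted p = 0.309, 0.321 and 0.409). For SNORD42A the interaction was 0.92 ± 1.03 and for SNORD30 0.60 ± 0.37 (SD). The H/ACA box snoRNAs, which guide pseudouridine formation, had medians of 0.00, 0.39 and 0.00 in the 3 experiments. SNORA21, SNORA65 and SNORA74A had the lowest p of that list, with interactions of 0.33, 0.29 and 0.36, and SNORA21 and SNORA74A had 0.04 and 0.14 with the resting baseline.

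**Figure D4:**
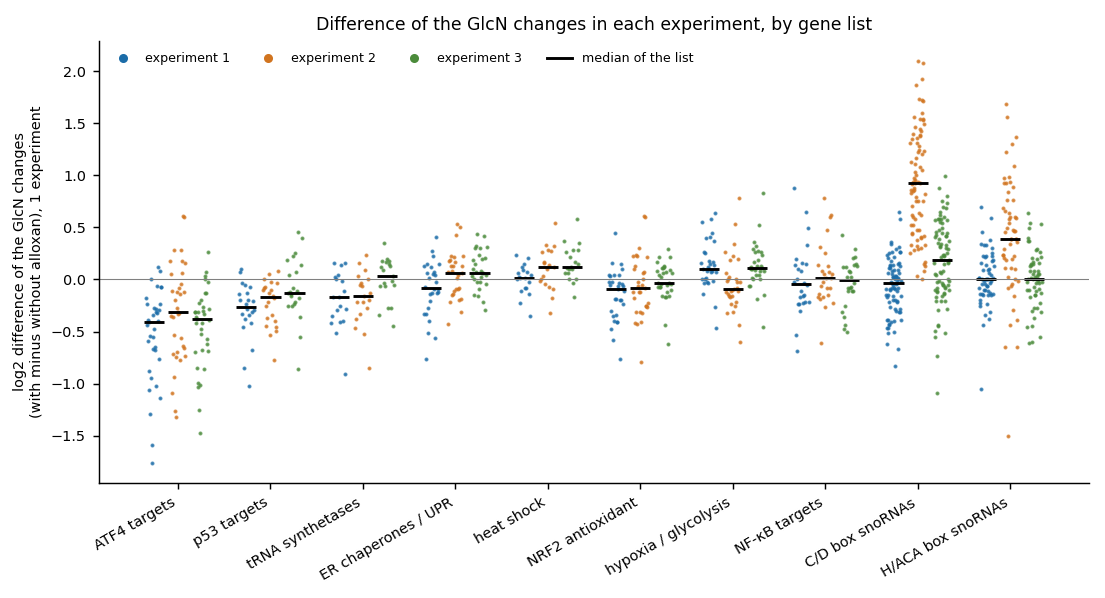
The interaction of each list member in each single experiment (log2 scale) is plotted for 10 gene lists, with a black bar for the median. The ATF4 medians lie below 0 in each experiment (-0.41, -0.31 and -0.38), while the C/D box snoRNA median is high in experiment 2 (0.93) and not in experiment 1 (-0.03).

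Of the 89 tested precursor genes of microRNAs, 5 lay above 0 and 4 below 0 at an unadjusted p under 0.05 (median -0.04). These shares are close to the 5.12% and 5.00% of all genes tested, so the list as a whole did not stand out. MIR221 had the largest interaction of these, 0.97 ± 0.31 (SD, adjusted p = 0.268), with 0.70, 1.31 and 0.88 in the 3 experiments. Its mature product is shown because its seed (bases 2 to 8, in capitals) sets which messages it pairs with. The array probes the precursor gene on chromosome X, so the mature RNA was not measured.
hsa-miR-221-3p: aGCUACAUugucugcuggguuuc
GlcN lowered MIR221 to 0.369-fold (adjusted p = 0.00127) and the log2 change of -0.47 in alloxan did not pass the test (adjusted p = 0.228). With the resting baseline the interaction was 0.22. MIRLET7G and MIR219A1 had interactions of 0.52 and -0.30, and that of MIRLET7G was 0.10 with the resting baseline.

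The cytokine and protease genes followed in the study had no call on the interaction. For TNF, the log2 values were 5.65, 6.73 and 7.10 in IL-1β alone, 5.10, 6.55 and 6.91 with GlcN, 5.66, 6.80 and 7.14 with alloxan and 5.77, 6.53 and 7.09 with both. The GlcN change without alloxan was negative in 3 of 3 experiments (log2 change -0.31, adjusted p = 0.107), and that in alloxan was 0.10, -0.26 and -0.05. The interaction was 0.24 ± 0.37 (SD, 95% interval -0.10 to 0.57, adjusted p = 0.582), with 0.65 in experiment 1 and -0.08 and 0.14 in experiments 2 and 3. An interaction of the size of the GlcN change itself lies inside that interval.

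CXCL8, which encodes IL-8, gave an interaction in the opposite direction. Its log2 values were 6.85, 7.27 and 7.43 in IL-1β alone, 6.15, 7.05 and 7.22 with GlcN, 8.09, 8.08 and 8.08 with alloxan and 6.70, 7.26 and 7.43 with both. Alloxan alone gave the highest value in each experiment and raised CXCL8 1.87-fold (adjusted p = 0.00983). With both agents the gene stood close to IL-1β alone (log2 change -0.05, adjusted p = 0.91). Against alloxan alone, however, GlcN lowered it to 0.515-fold (adjusted p = 0.0193), compared with 0.771-fold without alloxan (adjusted p = 0.21). The interaction was -0.58 ± 0.13 (SD, 95% interval -1.11 to -0.05, adjusted p = 0.47) and negative in 3 of 3 experiments. It was -0.34 without the alloxan array of experiment 1 and -1.19 with the resting baseline. The baseline thus matters for this gene, since the arrays with both agents were not called against IL-1β alone and were called against alloxan.

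IL6 fell to 0.476-fold without alloxan and 0.535-fold in alloxan (adjusted p = 0.00797 and 0.0406, interaction 0.17 ± 0.53, SD). IL24 fell to 0.534-fold and 0.618-fold (adjusted p = 0.00276 and 0.0241, interaction 0.21 ± 0.21, SD). For the matrix proteases ADAMTS1, ADAMTS6 and ADAMTS12, GlcN gave 0.541-fold, 0.642-fold and 0.605-fold without alloxan and 0.662-fold, 0.76-fold and 0.726-fold in alloxan, all past the test, with interactions of 0.29, 0.24 and 0.26 that were not. Of 26 tested NF-κB targets, 14 were above 0 and 12 below 0, where 43.4% of all genes were above 0. Only CXCL8 and the chemokine CXCL2 (-0.36, and -0.82 with the resting baseline) had an unadjusted p under 0.05, both below 0. Over all genes, 5.00% lay below 0 and 5.12% above 0 at that level, so nothing is read from these counts. TRAF1, a signalling adaptor, followed with 0.23. OGT itself had an interaction of -0.12 (95% interval -0.37 to 0.12). The other 12 tested genes of O-GlcNAc cycling and the hexosamine pathway had no call, and the lowest p was that of GNPDA2, a glucosamine-6-phosphate deaminase (0.61 ± 0.48, SD), followed by UAP1L1 and UAP1 (-0.20 each), the latter the enzyme that forms UDP-GlcNAc.

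**Figure D5:**
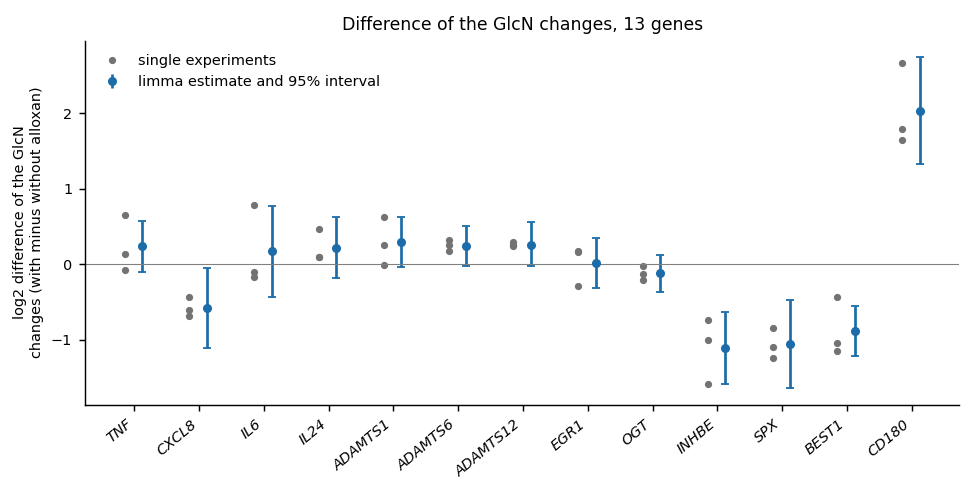
The interaction (log2 scale) is plotted for 13 genes, with grey points for the single experiments and blue points and bars for the limma estimate and its 95% interval. The intervals of TNF, IL6, IL24, the 3 ADAMTS genes, EGR1 and OGT include 0, and CD180 has the highest estimate (2.03).

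The other genes with a large interaction that did not pass the adjusted test fall into the patterns already described. SPX, which encodes the peptide hormone spexin, and BEST1, a chloride channel, rose 8.45-fold and 7.82-fold with GlcN and 4.05-fold and 4.25-fold in alloxan. Alloxan alone gave log2 changes of 0.10 and -0.34 in them that did not pass the test (interactions -1.06 ± 0.20 and -0.88 ± 0.38, SD). PDE5A, a phosphodiesterase specific for cyclic GMP, rose 2.15-fold with GlcN, and its log2 change in alloxan was 0.21 (adjusted p = 0.358, interaction -0.89 ± 0.26, SD). SDR42E1, ZNF619, AGK and EEF1AKMT2 had alloxan changes of 1.65, 1.72, 0.75 and 1.07 and interactions of -1.27, -1.22, -0.88 and -0.95, and in none of the 4 did the GlcN change in alloxan pass the test. Without the IL-1β-alone array of experiment 2, the interactions of AGK and EEF1AKMT2 were -0.55 and -0.50.

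Above 0, the stem cell receptor LGR5, the gastrin-releasing peptide receptor GRPR, the gap junction gene GJA1, the sarcomere gene MYPN and AMN1 were each lowered by both agents. LGR5 fell to 0.416-fold with GlcN and 0.422-fold with alloxan and stood at 0.344-fold with both (interaction 0.97 ± 0.28, SD, adjusted p = 0.36). GRPR, GJA1, MYPN and AMN1 had interactions of 0.93, 0.89, 0.88 and 0.91, and that of AMN1 was 0.57 without the IL-1β-alone array of experiment 2. The fibroblast markers leaned the same way, with 11 of 13 above 0, against 43.4% of all genes, and a median of 0.20. Only 2 of the 13 had the same sign in 3 of 3 experiments, against 31.1% of all genes. At an unadjusted p under 0.05, 2 lay above 0 (FAP and PDGFRB) and 0 below 0, against 5.12% and 5.00% of all genes. FAP, a surface protease of activated fibroblasts, had an interaction of 0.67 ± 0.04 (SD, adjusted p = 0.17), PDGFRB, a growth factor receptor, 0.50 ± 0.11 (SD, adjusted p = 0.234, 0.32 with the resting baseline), and COL1A2, a collagen chain, 0.35 ± 0.38 (SD). Alloxan alone lowered PDGFRB to 0.573-fold (adjusted p = 0.000638), and GlcN alone gave a log2 change of -0.15 that did not pass the test (adjusted p = 0.308). The list medians were 0.48, -0.06 and 0.25 in the 3 experiments. The mean log2 level of the 13 markers was 8.15 in IL-1β alone, 7.82 with GlcN, 7.84 with alloxan and 7.72 with both, while that of the 8 macrophage markers was 6.61 to 6.65, that of the 7 endothelial markers 6.18, 6.19, 6.14 and 6.11, and that of the 6 epithelial markers 7.83, 7.76, 7.79 and 7.66 in the same order. Whether cell number or RNA per cell differed between the groups was not measured on these arrays, and fewer expressing cells and less RNA per cell cannot be told apart. With both agents against IL-1β alone, 2669 genes were called (15.8% of those tested).

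The remaining lists held no called gene. Their median interactions were -0.15 for metallothioneins, -0.07 for the 18 cytokine genes, 0.01 for interferon-stimulated genes, 0.05 for matrix proteases and their inhibitors and 0.04 for collagens. The other medians were 0.07 for YAP and TAZ targets, 0.02 for DNA replication and mitosis genes, -0.06 for histones, -0.01 for cholesterol synthesis and 0.00 for glucose transporters and MondoA targets. Of the metallothioneins, 3 of 12 lay below 0 at an unadjusted p under 0.05, against 5.00% of all genes tested.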

How the data were processed

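RNA of MH7A cells was hybridised to Affymetrix Human Gene arrays. The authors processed the scans with RMA (background adjustment, normalisation and probe summary) in Expression Console, and the deposited log2 values were used here without change. The scanner files were not used here. Of 33297 transcript clusters, 19460 have 1 symbol, 1754 several and 12083 none in the platform annotation; clusters with several or no symbol were left out. Symbols were updated by gene ID for 19429 clusters, which gave 18417 genes, with the cluster of highest mean kept for a gene. Genes were tested where at least 3 arrays had a value above their own 20th percentile (16872 genes). Since log2 values differ in level between experiments, and intensities cannot be compared between probes, levels were not compared between genes, except for the rank of cell type markers within an array, which is approximate.

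Groups came from the sample titles, and the ex number (1 to 3) is the replicate. Deviations of arrays with the same number correlated at 0.628 to 0.848 (18 pairs) and of different numbers at -0.656 to -0.068 (36 pairs), so the numbers pair the arrays and limma 3.58.1 (R 4.3.3) was fitted with condition and experiment as terms on the 12 arrays (6 residual degrees of freedom, 8.92 after moderation), with Benjamini-Hochberg adjustment over all genes and a threshold of 0.05. The highest correlation between 2 arrays was 0.9958 and none were duplicates. Precision is limited by the number of arrays. SD is over the 3 within-experiment values and SE from the fit. The code was tested on simulated data. Alternatives were the fit without the block, all 15 arrays, the 3 within-experiment values, other filters and scalings, a linear scale, the methods' t-test and each experiment and array left out. The comparison of GlcN with alloxan and the resting baseline were chosen after seeing the data.

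The genes and lists were chosen with earlier results of these data known. Named genes are those past the adjusted test, up to 10 a direction with the largest interaction at an unadjusted p under 0.05 and 1 sign in 3 experiments, 13 genes chosen by name, and up to 3 of each list described with the lowest p; other list members named beside these were picked after their values were seen. Promoter and microRNA sequences are from RefSeq (GRCh38.p14).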

Additional observations from a re-analysis of the deposited data

Results flagged for a closer look

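The effect of GlcN differed between cells with and without alloxan, by the test of the difference itself, for 11 genes. The interactions on the log2 scale were -1.64 for IL20RB, -1.52 for GDF15, -1.10 for SLFN5, -0.89 for SESN2, -0.84 for HDDC3, -0.76 for THG1L and -0.59 for ELAC1. They were 0.41 for METTL25, 0.61 for TRMT10A, 0.79 for ANPEP and 1.17 for ZNF114. Groups of 3 arrays are too small for the test of single outlying arrays, so none was made.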

How the results depend on the processing

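Genes called by the adjusted test, 4 above 0 and 7 below 0, depended on the setting. In the fit without the replicate block 0 and 0 were called (1 gene at an unadjusted p under 0.05), in the methods' t-test 0 and 0 after adjustment (3 genes at an unadjusted p under 0.05), and with the 3 within-experiment values 0 and 0 (1797 genes). Above 0, all 15 arrays gave 2 and no filter on dim genes 1. Equal medians gave 8 above and 12 below 0, quantile normalisation 14 and 15, and the resting baseline 1 and 3. Leaving out 1 experiment or array gave 0 to 10 above and 0 to 11 below 0. All 11 genes were called by quantile normalisation and by the mean over clusters, 10 with equal medians, 7 with all 15 arrays and 3 on the linear scale. The 1.5-fold set, 75 above and 62 below 0, became 1 and 0 without the replicate block and 1 and 1 in the t-test, and ranged from 40 to 137 and from 34 to 129 when 1 experiment or array was left out. The highest and lowest were those without experiment 1 and without the GlcN or IL-1β-alone array of experiment 2 above 0, and without the IL-1β-alone array of experiment 3 or of experiment 2 below 0. The 20 ATF4 targets below 0 became 0 without the block and 0 in the t-test and were 16 to 22 with an experiment or array left out. The 19 C/D box snoRNAs above 0 became 0 without the block, 2 in the t-test, 5 on the linear scale and 3 with the resting baseline, and 3 to 30 with an experiment or array left out. No other setting moved a count by over 1.5 times. Signs turned with the resting baseline for ADAMTS12 (-0.10), IL6 (-1.07) and TRAF1 (-0.09), for EGR1 with quantile normalisation (-0.01) and on the linear scale (-3.34, in linear units), and with arrays left out for EGR1 (-0.11 to 0.17) and IL6 (-0.14 to 0.41). With the resting baseline, an interaction moves by the gene's own resting minus IL-1β-alone difference. IL6 was at 6.26, 7.59 and 7.68 in resting cells and 8.03, 8.63 and 8.59 in IL-1β alone. The cause of the other changes was not tested. A setting without the block holds the level differences between experiments in its error. With 3 arrays a group, precision is limited.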
